A study of Mus musculus with 42 samples.

Results

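The genes described here are those whose level moved together in lung, liver and forestomach of the same animal, after the effect of the dose had been removed. They were looked for in the 12 of 15 male Muta™Mouse, a transgenic strain made for mutation assays, that have arrays of all 3 tissues, which are 36 of the 42 arrays. The mice were about 11 weeks old and received BkF, the polycyclic aromatic hydrocarbon benzo(k)fluoranthene, in olive oil, or olive oil alone, by mouth on 28 days, and tissues were taken 72 h after the last dose. The 12 mice are vehicle mice 1, 2, 3 and 4 (D0, olive oil, 0 mg/kg-bw/day), low-dose mice 8 and 9 (D1, 25 mg/kg-bw/day), medium-dose mice 11, 12 and 13 (D2, 50 mg/kg-bw/day) and high-dose mice 16, 17 and 20 (D3, 100 mg/kg-bw/day). Mice 7 and 15 have no liver array here and mouse 19 no forestomach array, and their values are given apart. Each array compared 1 sample, a slice of the right lung lobe, the left liver lobe or the forestomach, with a common reference RNA pooled from mouse cell lines. Values are log2 ratios of sample over reference, so a level can be compared between mice but not between probes. A deviation is a mouse's log2 ratio minus the mean of its tissue and dose group. The low-dose group holds only 2 mice, so their deviations mirror each other.

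Several systems act on many organs at the same time. The circadian clock is a feedback loop in which Arntl (BMAL1) with Clock drives Per, Cry and Nr1d (REV-ERB) genes, whose products repress the loop in turn, and Dbp, Tef and Hlf carry its rhythm to other genes. Glucocorticoids from the adrenal gland rise daily and under stress, and through their receptor Nr3c1 they raise Fkbp5, Tsc22d3, Per1 and the metallothioneins in many tissues. The heat shock response, driven by heat shock factors, raises chaperones when proteins are unfolded or the body is warm, while the RNA-binding proteins Cirbp and Rbm3 are known to be raised by cold. Interferons raise antiviral and antigen-presentation genes. BkF itself acts through the aryl hydrocarbon receptor (AhR), whose best known target is Cyp1a1.

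A few arrays stood apart. The lung sample of mouse 12 had a skeletal muscle marker score, the mean log2 ratio of 12 measured marker probes, 5.19 above the lung median, and the liver sample of mouse 17 had one 4.42 above the liver median. The same lung sample held Krt13, a keratin of squamous epithelium, at a log2 ratio of 4.34, against at most -1.23 in the other lungs. The glandular stomach score of the forestomach samples was -4.76 to -3.71 relative to the forestomach median in mice 1, 4, 11, 16 and 20, and -0.26 to 0.71 in the other 7 mice. Sftpc in lung, Alb in liver and Krt5 in forestomach were high in all 12 mice, with median log2 ratios of 7.13, 7.15 and 3.66. The forestomach of mouse 2 held the highest Sftpc outside lung, 2.38 against 0.96 in the next forestomach, and the highest Alb outside liver, 2.58 against 2.50. In these bulk samples a shift in the share of a cell type and a shift in RNA per cell cannot be told apart. In 10 of the 12 mice, all but mice 2 and 16, lung and forestomach were hybridised on the same slide. For these mice, slide and mouse effects on both tissues cannot be told apart in a dose group where the slide held 1 mouse. The liver slides divided the mice as the lung slides did. Mice 3, 4, 9, 13 and 20 shared a liver slide and the others another, and no lung slide held mice of both sets. Between these sets, slide and mouse effects cannot be told apart in lung and liver either. The hour at which each mouse was killed is not given in the sources used here, so differences between mice in rhythmic genes such as Dbp, Nr1d1, Nr1d2 and Arntl cannot be set against it.

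Few probes were called as covarying between tissues. Across the 21238 probes tested, the median Pearson r of the deviations over the 12 mice was 0.04 between lung and liver, 0.25 between lung and forestomach and -0.008 between liver and forestomach. All 3 correlations were above 0 for 24.3% of the probes. A model with 1 mean per tissue and dose group and a term per mouse shared by the 3 tissues (limma, moderated F, Benjamini-Hochberg over all probes) called 175 probes at an adjusted p of at most 0.05, which is 0.824% of the probes. Of the 11546 named genes, each by its brightest probe, 115 were called, or 0.996%. The median share of the remaining variance that lay between mice, the intraclass correlation, was 0.079 over all probes and 0.718 over the called ones, which the call itself selects. Called probes deviated the same way in all 3 tissues in a median of 8 of 12 mice, and all probes in a median of 3, which the call selects as well.

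**Figure D1:**
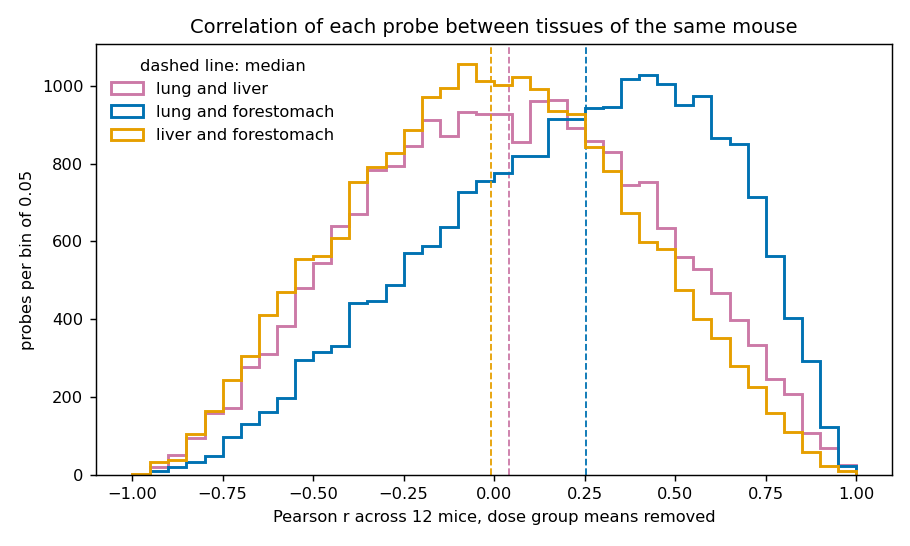
Histogram of Pearson r across 12 mice for each of 21238 probes (x axis, no unit) in bins of 0.05 (y axis, number of probes), 1 outline per pair of tissues, with dashed lines at the medians. The outline of lung and forestomach lies to the right, with a median of 0.25, and the other pairs centre near 0 with medians of 0.04 and -0.008.

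The shift of lung and forestomach as a whole moved with the scaling. The median r of this pair was 0.72 when arrays were only centred on their median, and 0.34 with slide as a block. The 10 spike-in probes, which read RNAs that are put into each sample in known quantities, also correlated between lung and forestomach, with a median r of 0.41 and all 10 above 0, while between lung and liver their median r was -0.61 and none was above 0. Their part in the shift was not tested. By single tissue pairs, with p from the correlation adjusted over all probes, 24 probes were called between lung and liver (0.113% of those tested), 23 of them positive, 2 between liver and forestomach (0.00942%) and 0 between lung and forestomach (0%), where 2965 had an unadjusted p under 0.05 and Spearman's correlation called 11. The exact permutation test, which exchanged mice within dose groups in all 1728 arrangements, can give no p below 0.000579, and its adjusted p called 0 probes in each pair. At that smallest value stood 31, 54 and 20 probes of the respective pairs lung and liver, lung and forestomach, and liver and forestomach. These are 0.146%, 0.254% and 0.0942% of the probes tested, where the share expected without covariation equals that smallest p. Of the 100 probes with the highest r between lung and liver, 83 also had a positive r between forestomach and the mean of the other tissues, against 65.1% of all probes, and 45 had an unadjusted p under 0.05, against 8.45%. Their median r in forestomach was 0.58, and that of all probes 0.16. In that comparison 8 of all probes were called (0.0377%), among them 5 of the 100.

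Among heat shock genes, 4 of the 10 measured were called, led by Hsph1, a chaperone of the HSP110 family, and Hsp90aa1, the stress-inducible HSP90. In lung, Hsph1 read 0.30, 3.15, 1.78 and -0.95 in vehicle mice 1, 2, 3 and 4, -0.50 and -0.25 in low-dose mice 8 and 9, 0.99, -0.65 and 1.10 in medium-dose mice 11, 12 and 13, and 0.92, 0.42 and -0.01 in high-dose mice 16, 17 and 20. In liver it read -0.57, 1.53, 0.45 and -1.08 in vehicle mice 1, 2, 3 and 4, -1.25 and -0.50 in low-dose mice 8 and 9, 0.08, -1.12 and 1.30 in medium-dose mice 11, 12 and 13, and 0.62, 0.39 and -0.21 in high-dose mice 16, 17 and 20. In forestomach it read 0.03, 1.99, 1.25 and -0.37 in vehicle mice 1, 2, 3 and 4, -0.06 and 0.35 in low-dose mice 8 and 9, 0.36, -0.82 and 1.07 in medium-dose mice 11, 12 and 13, and 0.48, -0.10 and -0.53 in high-dose mice 16, 17 and 20. Mouse 2 was the highest vehicle mouse and mouse 4 the lowest in every tissue, with lung deviations of 2.08 and -2.02, and mouse 12 lay lowest and mouse 13 highest of the medium-dose mice. Mice 2, 3, 9, 13 and 16 lay above their group mean in all 3 tissues and mice 1, 4, 8, 12 and 20 below it. The mouse effect of Hsph1 had F = 38.0 and an adjusted p of 7.47e-07. Its r was 0.92 between lung and liver (Spearman's rho 0.91), 0.95 between lung and forestomach (rho 0.95) and 0.98 between liver and forestomach (rho 0.96), with an exact permutation p of 0.000579, the smallest possible, for each r and of 0.00289, 0.000579 and 0.00116 for each rho. Over all probes and pairs these permutation p-values did not pass adjustment, the adjusted values being 0.396, 0.228 and 0.580. Without the 2 mice farthest from the median, r stayed at 0.89, 0.96 and 0.95.

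The list of heat shock genes had 10 of 11 members measured, and 4 of them, Hsph1, Hsp90aa1, Hspa1a and Hspe1, were called, beside 0.996% of all named genes. The median of the members' mean r over the 3 pairs was 0.59, against 0.06 for all probes, and 10 of 10 had an unadjusted p under 0.05, against 12.2%. Hspa1a, the inducible HSP70, had the widest range, with deviations from -2.30 in lung of mouse 4 to 2.09 in liver of mouse 2, and an adjusted p of 0.000143. Signal from its near-identical copy Hspa1b on the same probe cannot be told apart. Hspe1, the mitochondrial HSP10, had an adjusted p of 0.0369, and of 0.404 with slide as a block and 0.349 without mouse 2, and its call was lost under 8 of the 12 leave-outs. The members that did not pass were Bag3 (adjusted p = 0.0785), Hspa8 (0.107, with another of its probes called at 0.0210), Hspa5 (0.180), Dnajb1 (0.243), Hspb1 (0.337) and Hspd1 (0.362). Hspb1, a small heat shock protein, had r = 0.85 between lung and liver and values of -0.04 and -0.12 for the pairs with forestomach, a difference that was not tested.

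Cofactors of these chaperones were also called, and they were named after their values had been seen. These were Hspa4l, Stip1, Dnaja4, Chordc1, Ahsa1, Cacybp, Fkbp4 and Dnaja1, proteins that assist HSP70 or HSP90, with adjusted p-values from 0.00194 (Hspa4l) to 0.0347 (Dnaja1). Stip1 kept the call in each of 3 settings that ended others. With tissues scaled to equal SD it lost the call (adjusted p = 0.441), as every called named probe did. With slide as a block Hspa4l (0.120), Dnaja4 (0.238), Ahsa1 (0.178), Cacybp (0.341) and Fkbp4 (0.307) lost it, and without mouse 2 Dnaja4 (0.247), Chordc1 (0.168), Cacybp (0.193), Fkbp4 (0.111) and Dnaja1 (0.386) did, as did Ahsa1 without mouse 12 (0.0911). Under the 12 leave-outs the call was lost 9 times for Fkbp4, 7 for Dnaja1 and 6 for Cacybp. It was lost 2 times for Chordc1 and for Ahsa1, 1 time for Dnaja4 and 0 times for Hspa4l and Stip1. With arrays only centred on their median the 7 cofactors other than Stip1 lay between 0.0556 and 0.0948. When the deviations of each gene were averaged over the tissues to 1 profile per mouse, 16 of the other 114 called genes had a profile with r of at least 0.8 to that of Hsph1, led by Hspa4l (0.99), Hsp90aa1 (0.98) and Stip1 (0.97). The likeness is a description over 12 mice, and genes called by the same test share its selection. P4ha1, a subunit of the enzyme that hydroxylates collagen prolines, followed Hsph1 with r = 0.96.

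Cirbp, the cold-inducible RNA-binding protein, ran the other way, with a profile that had r = -0.91 to that of Hsph1. Mice 2, 13 and 16 lay below their group mean for Cirbp in all 3 tissues, and mice 1, 4, 12, 17 and 20 above it. In the lung of mouse 2 it read -1.06 against -0.22 to 0.40 in the other vehicle mice, and in the liver -1.88 against -1.09 to -0.70. Its mouse effect had an adjusted p of 0.00164, and of 0.102 with arrays only centred on their median. Arrdc2 was the only other called gene at or below -0.8 (r = -0.87), and Rbm3, the second cold-inducible protein, was called by 1 of its 3 probes (adjusted p = 0.0240, the others 0.245 and 0.447). Its profile had r = -0.38 to that of Hsph1, and the call was lost without mouse 12 (0.224) and with slide as a block (0.101). Arrdc2 lost its call without mouse 12 as well (0.335), with slide as a block (0.169) and with arrays only centred on their median (0.0948). It also lost it with the skeletal muscle score as covariate and without mouse 2, 4 or 11.

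**Figure D2:**
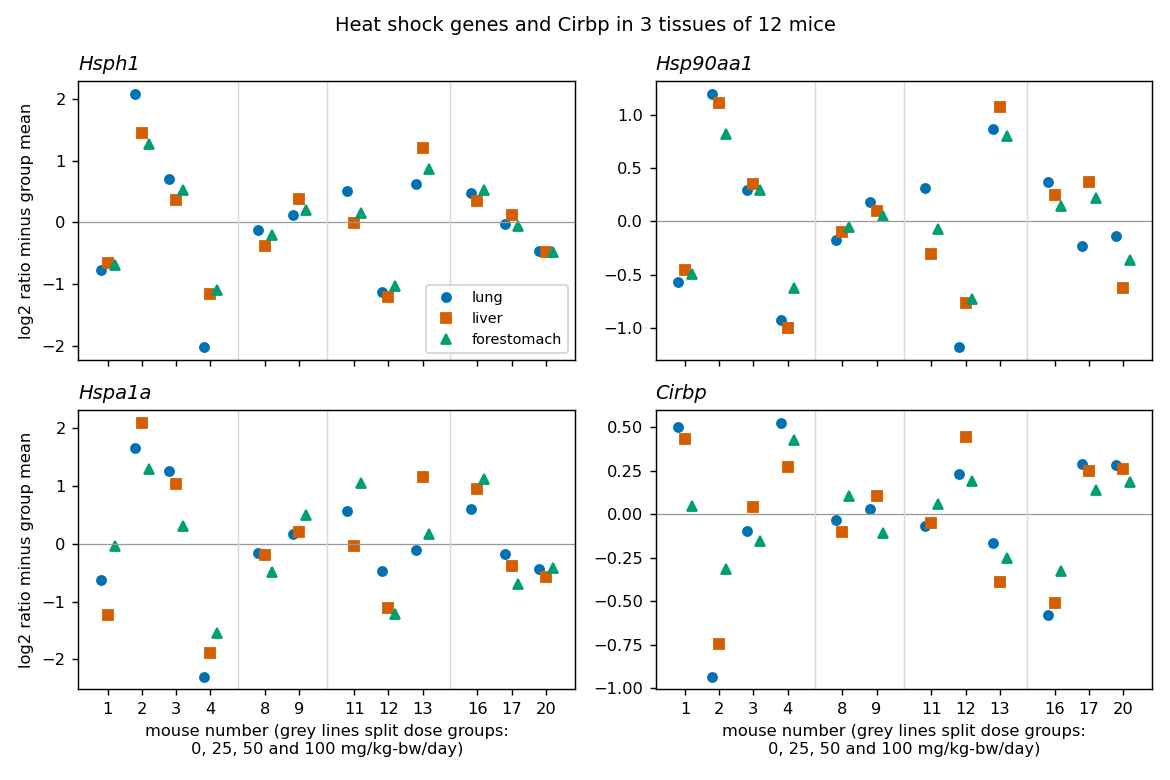
Deviation of the log2 ratio from the mean of the mouse's tissue and dose group (y axis, log2 units) for Hsph1, Hsp90aa1, Hspa1a and Cirbp in each of 12 mice (x axis, dose groups divided by grey lines), with lung as circles, liver as squares and forestomach as triangles. The symbols of a mouse lie close together, mouse 2 is high and mouse 4 low for the heat shock genes, and Cirbp is low in mouse 2.

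Promoters of 3 of these genes are shown because they hold the sequence that heat shock factors bind. The heat shock element of 3 units was searched as GAANNTTCNNGAA or TTCNNGAANNTTC on both strands in RefSeq windows of 300 bases (build GRCm38.p6) that lie mostly before the gene's start and end shortly after it. It was in 0.529% of 27025 promoters, in 2 of the 8 list members that had a promoter entry, Hsph1 and Hspe1, and in 1 of the 8 cofactors, Chordc1. The shorter form of 2 inverted units, GAANNTTC or TTCNNGAA, which the longer form contains, was in 15.1% of all promoters and in 5 of the 8 list members. The windows are chr5:149636287-149636586 on the minus strand, chr1:55087898-55088197 on the plus strand and chr9:18292017-18292316 on the plus strand, with the element in capitals.
Hsph1: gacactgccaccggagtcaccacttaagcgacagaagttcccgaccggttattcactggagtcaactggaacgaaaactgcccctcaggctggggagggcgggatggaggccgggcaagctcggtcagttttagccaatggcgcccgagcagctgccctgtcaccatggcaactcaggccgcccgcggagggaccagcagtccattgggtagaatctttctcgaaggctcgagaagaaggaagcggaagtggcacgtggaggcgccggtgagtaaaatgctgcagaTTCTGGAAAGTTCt
Hspe1: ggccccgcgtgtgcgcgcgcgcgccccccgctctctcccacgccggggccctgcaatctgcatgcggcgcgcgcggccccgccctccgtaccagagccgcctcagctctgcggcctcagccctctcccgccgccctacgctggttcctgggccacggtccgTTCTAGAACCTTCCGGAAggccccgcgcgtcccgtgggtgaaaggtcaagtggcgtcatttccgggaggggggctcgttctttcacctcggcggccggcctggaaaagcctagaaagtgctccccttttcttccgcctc
Chordc1: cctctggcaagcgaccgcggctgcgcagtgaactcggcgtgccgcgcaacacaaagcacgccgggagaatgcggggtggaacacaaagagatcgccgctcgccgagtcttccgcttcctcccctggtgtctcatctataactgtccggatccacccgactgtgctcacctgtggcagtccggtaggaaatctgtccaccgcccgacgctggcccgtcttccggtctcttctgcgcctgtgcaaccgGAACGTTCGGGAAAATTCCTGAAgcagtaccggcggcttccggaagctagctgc
The element of Hsph1 lies at the very end of its window, after the start of the gene, while that of Hspe1 lies before the start. A match is a description of the letters and does not show that a factor was bound.

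Clock genes were the next group. Of the 10 measured members of the core list, which has 15, Per1, Nr1d2, Arntl and Nr1d1 were called, and of the 6 output genes Dbp, with a background of 0.996% of named genes. The median of the members' mean r was 0.58 for the core and 0.43 for the output list. Dbp, a transcription factor whose messenger RNA swings widely over the day, read in lung -0.03, -1.62, -1.43 and 0.33 in vehicle mice 1, 2, 3 and 4, 1.52 and -0.51 in low-dose mice 8 and 9, 1.73, -0.07 and 0.51 in medium-dose mice 11, 12 and 13, and 0.84, 1.32 and 1.59 in high-dose mice 16, 17 and 20. In liver it read -0.97, -1.50, -2.76 and 0.47 in vehicle mice 1, 2, 3 and 4, -0.38 and -2.19 in low-dose mice 8 and 9, 0.57, -0.70 and 0.74 in medium-dose mice 11, 12 and 13, and 0.62, 0.47 and 2.01 in high-dose mice 16, 17 and 20. In forestomach it read -1.25, -1.50, -2.01 and -0.38 in vehicle mice 1, 2, 3 and 4, -0.84 and -2.10 in low-dose mice 8 and 9, 0.27, -0.95 and -0.19 in medium-dose mice 11, 12 and 13, and 0.03, -0.56 and 0.53 in high-dose mice 16, 17 and 20. Mice 1, 4, 8, 11 and 20 lay above their group mean in all 3 tissues and mice 2, 3, 9 and 12 below it, and the vehicle mice 4 and 3 lay farthest apart, with liver deviations of 1.66 and -1.57. The mouse effect had F = 15.8 and an adjusted p of 0.000409. The pairs gave r = 0.80 (rho 0.77) for lung and liver, 0.84 (rho 0.85) for lung and forestomach and 0.95 (rho 0.96) for liver and forestomach. Their exact permutation p was 0.0174, 0.0110 and 0.00116 for r, or 0.675, 0.285 and 0.580 after adjustment, and 0.0260, 0.0150 and 0.00231 for rho. Without the 2 farthest mice r was 0.63, 0.69 and 0.92. A second probe of Dbp was called too.

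Nr1d2 and Nr1d1, the REV-ERB repressors, followed Dbp. The profile of Nr1d2 over the mice had r = 0.92 to that of Dbp and that of Nr1d1 0.79. Nr1d2 was highest in vehicle mouse 4, at 0.81 in lung, 1.26 in liver and 0.28 in forestomach, where the other vehicle mice lay from -0.42 to -0.12, from 0.27 to 0.86 and from -0.77 to -0.33. The adjusted p of the mouse effect was 0.00817 for Nr1d2 and 0.0123 for Nr1d1, but that of Nr1d2 was 0.340 without mouse 4, and its call was lost. Arntl, which the REV-ERBs repress, ran opposite to Dbp, with r = -0.75 between the profiles. In liver Arntl was 0.44 in vehicle mouse 4 and 1.74 in vehicle mouse 3, the mice at the upper and lower end of Dbp. Its adjusted p was 0.00819, but with slide as a block it was 0.0618 and without mouse 8 or 9 it was 0.0641.

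Per1 belongs to the clock and to the glucocorticoid targets, and its profile over the mice had r = 0.78 to that of Fkbp5 and 0.30 to that of Dbp. It was above the group mean in all 3 tissues of mice 2, 4, 8, 12 and 20 and below it in mice 3, 9, 11 and 13, with an adjusted p of 0.00121. In mouse 12, where Dbp deviated by -0.91 to -0.66, Per1 was 0.65 above it in lung, 1.26 in liver and 0.78 in forestomach. Members that did not pass included Per2 (mean r 0.59, adjusted p = 0.115), Cry2 (0.33, 0.418), Bhlhe40 (0.26, 0.441), Rora (0.25, 0.488) and Clock (0.15, 0.453). Among the output genes these were Tef (0.60, 0.0716), Hlf (0.51, 0.235), Wee1 (0.34, 0.381), Nfil3 (0.32, 0.427) and Usp2 (0.22, 0.444). Tef, a close relative of Dbp, passed with slide as a block (adjusted p = 0.0233). With arrays only centred on their median, the calls of Dbp, Per1, Nr1d2 and Nr1d1 were lost, at adjusted p-values of 0.0958, 0.0948, 0.136 and 0.149, and that of Nr1d1 also without mouse 12 (0.0569) or mouse 2 (0.135) and with the skeletal muscle score as covariate (0.0691).

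**Figure D3:**
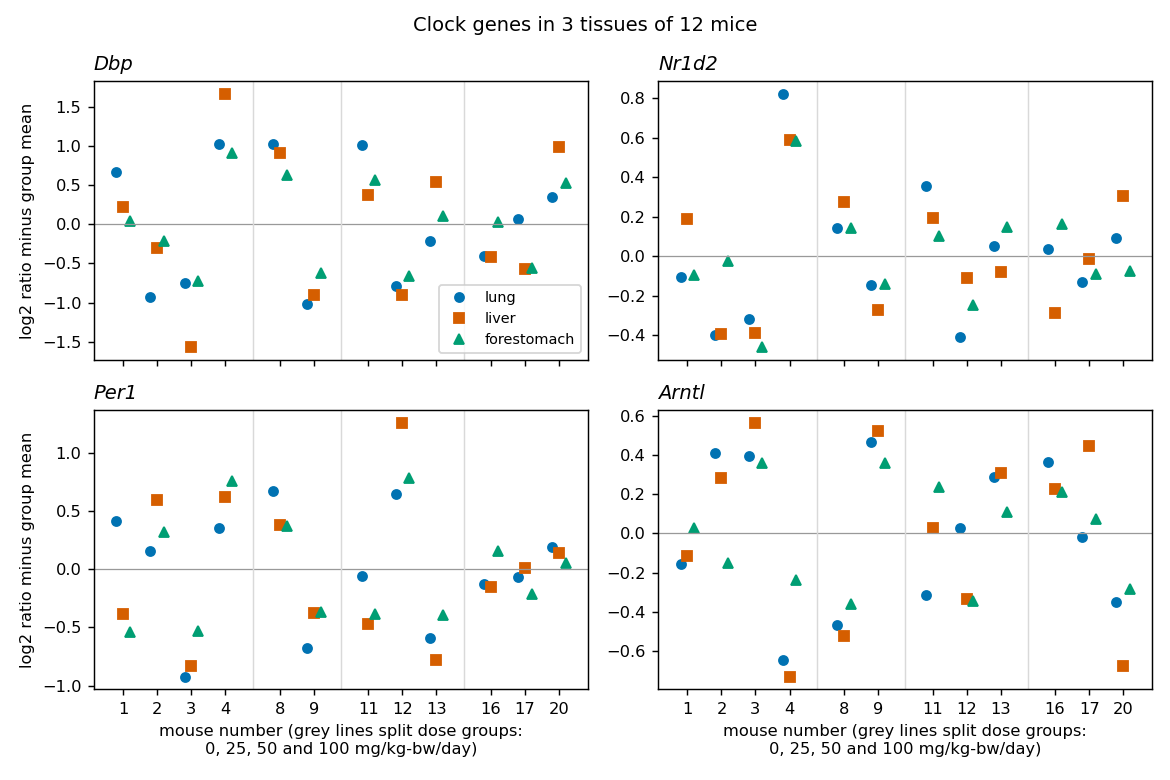
Deviation of the log2 ratio from the mean of the mouse's tissue and dose group (y axis, log2 units) for the clock genes of each panel in 12 mice (x axis, dose groups divided by grey lines), with lung as circles, liver as squares and forestomach as triangles. Dbp is high in mouse 4 and low in mouse 3 in every tissue, and Arntl shows the opposite order.

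The promoter of Per1 is shown because it was the only one among the 7 core clock genes with an entry that held the E-box CACGTG, the hexamer bound by BMAL1 with CLOCK. That letter string, the same on both strands, was in 7.24% of all promoters, and among the 5 output genes with an entry in that of Tef alone. The window is chr11:69098699-69098998 on the plus strand of GRCm38.p6, with the E-box in capitals.
Per1: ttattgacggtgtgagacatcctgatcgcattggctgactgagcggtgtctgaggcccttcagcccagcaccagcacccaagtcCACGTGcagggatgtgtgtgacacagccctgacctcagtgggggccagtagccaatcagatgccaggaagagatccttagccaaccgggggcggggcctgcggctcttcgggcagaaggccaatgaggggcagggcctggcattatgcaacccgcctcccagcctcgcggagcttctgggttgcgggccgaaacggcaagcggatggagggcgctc
The window covers 300 bases only, and nothing is drawn from the absence of the string in the other promoters.

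Of the 21 glucocorticoid targets, all measured, 7 were called, beside 0.996% of all named genes, and 5 of these calls were lost without mouse 12. The called members were Mt2, Fkbp5, Mt1, Per1, Tsc22d3, Cdkn1a and Cebpd. The median of the members' mean r was 0.43. Fkbp5, a co-chaperone of the glucocorticoid receptor and one of its most sensitive targets, read in lung -1.40, -0.72, -1.47 and -1.30 in vehicle mice 1, 2, 3 and 4, -0.97 and -1.67 in low-dose mice 8 and 9, -1.24, 1.86 and -1.17 in medium-dose mice 11, 12 and 13, and -1.46, -1.10 and -1.34 in high-dose mice 16, 17 and 20. In liver it read -0.72, 0.21, -0.26 and -0.12 in vehicle mice 1, 2, 3 and 4, -0.46 and -0.91 in low-dose mice 8 and 9, -0.30, 2.12 and -0.21 in medium-dose mice 11, 12 and 13, and -0.49, -0.08 and -0.31 in high-dose mice 16, 17 and 20. In forestomach it read 0.18, -0.05, 0.07 and 0.14 in vehicle mice 1, 2, 3 and 4, -0.16 and -0.60 in low-dose mice 8 and 9, 0.06, 1.51 and -0.15 in medium-dose mice 11, 12 and 13, and 0.30, -0.51 and 0.44 in high-dose mice 16, 17 and 20. Mouse 12 was the highest of the 12 mice in each tissue, by 2.58, 1.91 and 1.07 on the log2 scale above the next. The adjusted p was 0.000967 with all mice and 0.615 without mouse 12. Between lung and liver r was 0.98 (rho 0.96, exact permutation p 0.00405 for r, adjusted 0.572, and 0.00289 for rho) and stayed at 0.84 without mice 11 and 12, while r was 0.77 and 0.72 for the respective pairs of lung and of liver with forestomach (rho 0.55 and 0.45, exact permutation p 0.236 and 0.274 for r, adjusted 0.616 and 0.898, and 0.186 and 0.3 for rho) and -0.15 and -0.28 without those mice.

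The metallothioneins Mt1 and Mt2, small metal-binding proteins raised by metals and glucocorticoids, had the largest deviations. In liver Mt2 was 2.30 in mouse 12 and between -4.34 and -1.92 in the other 11 mice, and in lung 0.34 against -3.49 to -2.71. In forestomach it was 2.33 in mouse 12 and at most 1.69 in the others. Mt1 had 2.03 in the liver of mouse 12 against at most -1.06 in the other livers. Mouse 17 was next in liver for both. The adjusted p-values of 0.0101 for Mt2 and 0.0231 for Mt1 became 0.541 and 0.398 without mouse 12, and those of Cdkn1a, the cell cycle inhibitor p21, and of Cebpd, a transcription factor, rose from 0.0236 and 0.0407 to 0.335 and 0.336. With slide as a block Mt1 (0.174), Cdkn1a (0.0944) and Cebpd (0.205) lost the call and Fkbp5 kept it (0.00191). Mouse 12 is the mouse whose lung sample held muscle markers, and its skeletal muscle scores relative to the tissue median were -0.13 in liver and -0.34 in forestomach. With that score as covariate Cdkn1a (0.0545) and Cebpd (0.0654) lost the call, and Cebpd lost it under 9 of the 12 leave-outs.

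Tsc22d3, the glucocorticoid-induced leucine zipper GILZ, did not rest on mouse 12. Mice 2, 12, 16 and 17 lay above their group mean in all 3 tissues and mice 1, 3, 4, 13 and 20 below it. In vehicle mouse 2 it read 3.12 in lung, 2.39 in liver and 1.49 in forestomach, against at most 2.42, 1.49 and 0.65 in the other vehicle mice. The adjusted p was 0.00849, 0.00741 without mouse 12, 0.189 without mouse 2, 0.692 with slide as a block and 0.0506 with arrays only centred on their median. Of the 7 called members, Per1 (0.0102) and Tsc22d3 still passed without mouse 12, and the median mean r of the list was 0.25. Of the members that did not pass, Dusp1 (mean r 0.56, adjusted p = 0.164), Zbtb16 (0.54, 0.0818), Angptl4 (0.50, 0.165) and Klf9 (0.43, 0.263) had 3 positive correlations, while Pdk4 (-0.20) and Plin4 (-0.42) lay below 0. The receptor Nr3c1 itself had a mean r of 0.24 and an adjusted p of 0.382.

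**Figure D4:**
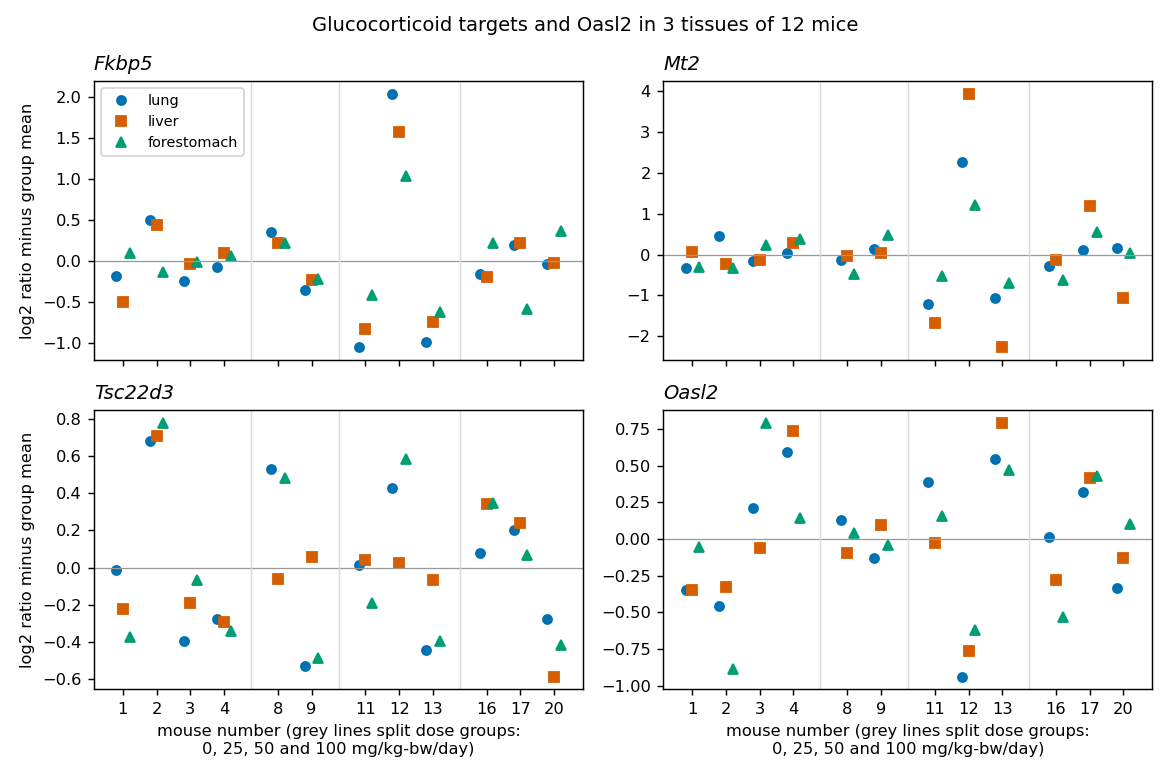
Deviation of the log2 ratio from the mean of the mouse's tissue and dose group (y axis, log2 units) in 12 mice (x axis). The panels show the glucocorticoid targets Fkbp5, Mt2 and Tsc22d3 and the interferon-induced gene Oasl2. Grey lines divide the dose groups, with lung as circles, liver as squares and forestomach as triangles. Mouse 12 is highest for Fkbp5 in every tissue, by 1.07 or more over the next mouse in log2 ratio.

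The promoters of the metallothioneins, which are neighbours in the genome, are shown because both hold several copies of the core that the metal-sensing factor MTF1 binds. The core was searched as TGCACNC or TGCGCNC on both strands and was in 25.6% of all promoters. The windows are chr8:94178839-94179138 for Mt1 and chr8:94172368-94172667 for Mt2, both on the plus strand of GRCm38.p6, with the 3 and 4 matches in capitals.
Mt1: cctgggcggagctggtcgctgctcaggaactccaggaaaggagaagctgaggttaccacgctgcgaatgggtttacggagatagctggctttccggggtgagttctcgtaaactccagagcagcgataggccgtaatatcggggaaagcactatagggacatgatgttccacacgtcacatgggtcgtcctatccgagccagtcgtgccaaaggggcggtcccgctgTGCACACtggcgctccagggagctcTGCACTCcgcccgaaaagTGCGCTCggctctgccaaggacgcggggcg
Mt2: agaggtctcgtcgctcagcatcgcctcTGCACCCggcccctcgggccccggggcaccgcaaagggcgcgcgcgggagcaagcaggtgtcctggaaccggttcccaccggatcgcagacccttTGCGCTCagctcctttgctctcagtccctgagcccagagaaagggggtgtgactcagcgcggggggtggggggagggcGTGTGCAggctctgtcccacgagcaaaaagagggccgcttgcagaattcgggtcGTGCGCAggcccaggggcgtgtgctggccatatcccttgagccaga
Glucocorticoid receptor sites were not searched for.

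Interferon-induced genes were low in mouse 12 and high in mouse 13, both of the medium dose. Their mean deviations over the list were -0.71 and 0.67 in lung, -0.74 and 0.65 in liver and -0.38 and 0.40 in forestomach. Vehicle mouse 4 was high too, at 0.49 in lung, 0.39 in liver and 0.15 in forestomach. In forestomach mouse 2 (-0.42) lay below mouse 12, and mouse 20 (0.43) above mouse 13. Antigen-presentation genes were low in mouse 12, at -0.74, -0.87 and -0.30 in the same order of tissues, and high in mouse 13 in lung (0.41) and liver (0.66), while in its forestomach they averaged 0.10 with 6 of 10 genes above 0. Of 15 measured interferon-induced genes of 20, Oasl2, Ifit3 and Rtp4 were called, 20% beside 0.996% of all named genes, and the median of the members' mean r was 0.44, with 12 of 15 at an unadjusted p under 0.05 against 12.2% of all probes. Oasl2, an oligoadenylate synthetase-like antiviral protein, read -0.76 in the lung of mouse 12 and 0.07 to 1.16 in the other lungs, and -2.19 in its liver and -1.67 to -0.58 in the others. In forestomach mouse 12, at -1.83, was second lowest after mouse 2, at -2.19. Without mouse 12 its adjusted p of 0.00632 was 0.107, that of Ifit3 rose from 0.0324 to 0.578 and that of Rtp4 from 0.0173 to 0.0999, so that these calls were lost, and the median mean r of the list was 0.26. With slide as a block Ifit3 (0.107) and Rtp4 (0.454) lost the call and Oasl2 kept it (0.00302), and with arrays only centred on their median all 3 lost it (0.0948 to 0.172). With the skeletal muscle score as covariate Oasl2 (0.0608) and Ifit3 (0.149) lost it, and without mouse 13 Ifit3 (0.170) and Rtp4 (0.207) did. Called genes of the same kind that were named after their values had been seen were Irgm2, Tgtp2, Cxcl10, Irf9 and Gbp4, with adjusted p-values from 0.00318 (Irgm2) to 0.0360 (Gbp4). All 5 calls were lost without mouse 12 (0.0740 to 0.545), with slide as a block (0.274 to 0.620) and with arrays only centred on their median (0.0948 to 0.248).

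Of 10 measured genes of the major histocompatibility complex, Cd74, the class II invariant chain, was called (adjusted p = 0.0273), which is 10% beside 0.996% of all named genes, and 8 of 10 had an unadjusted p under 0.05 against 12.2% of all probes. H2-Eb1 and H2-Ab1 missed the threshold at 0.0504 and 0.0547. The deviation of Cd74 in mouse 12 was -1.28 in lung, -1.02 in liver and -1.07 in forestomach, and in mouse 13 it was 0.79, 0.76 and 0.54. Without mouse 12 the adjusted p was 0.590, with arrays only centred on their median 0.0955 and with the skeletal muscle score as covariate 0.220, and the call was lost under 5 of the 12 leave-outs. The profile of Fkbp5 over the mice had r = -0.91 to that of Cd74 and -0.84 to that of Ifit3, and mouse 12 lies at the end of each. B cell and plasma cell markers were also low in lung and liver of mouse 12, with scores of -1.13 and -0.36 relative to the tissue median. The T cell scores were -0.75 and -0.21. In forestomach these scores were nearer the tissue median, at -0.13 and -0.10. Their part in the result was not tested. Tap1, a peptide transporter of antigen presentation, had a called correlation between lung and liver (r = 0.98, adjusted p = 0.008 from the correlation, rho 0.89, exact permutation p 0.00116 for both, permutation p adjusted 0.417 for r, and r = 0.85 without mice 12 and 13) but r of 0.06 and 0.08 with forestomach, where it was well above background on 3 of 12 arrays. Without mouse 12 the correlation of Tap1 lost its call (adjusted p = 0.218), as it did with slide as a block (0.382), and with arrays only centred on their median r was 0.29 (0.999).

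The genes that BkF induces through the AhR were not called. Cyp1a1, the enzyme that oxidises polycyclic aromatic hydrocarbons, had been well above background in all lungs and in the liver of 7 mice. The 2 low-dose mice differed, as mouse 8 read 9.28 in lung, 4.61 in liver and 1.93 in forestomach and mouse 9 read 7.10, -0.02 and 0.13. The liver value of mouse 9 lay within those of the vehicle mice, from -0.09 to 0.23, as did its forestomach value, against -0.39 to 0.60. Mouse 12 had the highest Cyp1a1 of the dosed mice in liver (7.14) and forestomach (4.78) and the second lowest in lung (8.46). The adjusted p of the mouse effect was 0.287, and r was 0.51, 0.03 and 0.51 for lung and liver, lung and forestomach, and liver and forestomach, with rho of 0.27, -0.07 and 0.48. Exact permutation p-values were 0.629, 0.940 and 0.321 for r, adjusted 0.951, 0.982 and 0.92, and 0.715, 0.843 and 0.277 for rho. Without the 2 farthest mice r was -0.23, -0.47 and 0.36. Of the 8 measured genes of the list of 10, 0 were called, beside 0.996% of all named genes, and 4 had an unadjusted p under 0.05, which is 50% against 13.0% of named genes. The median mean r was 0.30, but -0.01 with slide as a block. Nqo1, a quinone reductase, came nearest, with r from 0.53 to 0.78 and an adjusted p of 0.111. Among the others were Tiparp (0.222), Cyp1a1 (0.287), Cyp1b1 (0.409) and the repressor Ahrr (0.753).

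Other whole-body programmes held 1 called gene. Among immediate early genes, Atf3, a stress-induced transcription factor, was called of 9 measured (11.1%, beside 0.996% of named genes, adjusted p = 0.0143), and the call was lost without mouse 12 (0.193) with slide as a block (0.200) and with the skeletal muscle score as covariate (0.0708). The median mean r of the list was 0.04. No member was called of 11 genes of cholesterol synthesis (median mean r 0.27), 12 genes of fasting and PPARA (0.07), 9 of lipogenesis (-0.01), 8 of the acute phase (-0.05), 10 of proliferation (0.09) or 15 of the ribosome (0.04), in limma's moderated F test. At an unadjusted p under 0.05 these lists held 4, 3, 0, 1, 0 and 0 genes. Cholesterol synthesis (36.4%) and fasting (25.0%) thus lay above the 13.0% of all named genes, and the others below it. The 10 marker lists of other tissues and cells had no called member either, with an unadjusted p under 0.05 for 1 of 2 pancreas, 1 of 3 brown fat and 2 of 4 B or plasma cell markers tested, shares above the 13.0% of named genes on few genes.

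The genes with the highest mean correlation were mostly of another kind. Among called genes the leading 12 by this measure were Vps16, Hsph1, Hddc3, Hsp90aa1, Zfp637, Itpa, Tomm22, Trim12a, Polr1b, 2810004N23Rik, Clic4 and Leo1. Vps16, a subunit of the complexes that tether vesicles to lysosomes, read in lung -4.11, -0.02, -4.67 and 0.20 in vehicle mice 1, 2, 3 and 4, -0.80 and -0.85 in low-dose mice 8 and 9, -0.95, -0.01 and -0.06 in medium-dose mice 11, 12 and 13, and 0.18, -0.73 and 0.36 in high-dose mice 16, 17 and 20. In liver mice 1 and 3 read -3.68 and -3.70 and the other 10 lay from -1.21 to -0.05, and in forestomach they read -2.48 and -3.79 against -0.64 to 0.72. The values thus fell into separate sets with the same mice in every tissue, so no correlation is given as a result. The mouse effect of Vps16 had an adjusted p of 3.81e-09. Trim12a, a protein of the TRIM family of antiviral factors, was well above background in no tissue of mice 4, 8, 9, 16 and 20, where its lung values were -0.58 to -0.33, against 3.38 to 4.00 in the other 7. These mice include vehicle and dosed animals.

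More probes of this kind were seen after the values had been examined. A second probe of Thumpd1, a protein of transfer RNA modification, was lowest in mouse 17, at -3.04 in lung, -2.93 in liver and -2.32 in forestomach, against at least -0.15, -0.21 and -0.05 in the others, and the brighter probe of the gene was not called (mean r 0.21). Rnu3b1, a small nucleolar RNA, was high in mice 1, 11, 12 and 16, from 1.71 to 2.39 in lung, and -2.49 to 0.24 in the others. In 62 of all probes the widest gap between ordered mice set the same mice apart in all 3 tissues, and 25 of these were called, 7 of them with at least 2 mice on each side. The mice low for Vps16 (1 and 3), for the Thumpd1 probe (17) and for Trim12a (4, 8, 9, 16 and 20) were different ones.

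**Figure D5:**
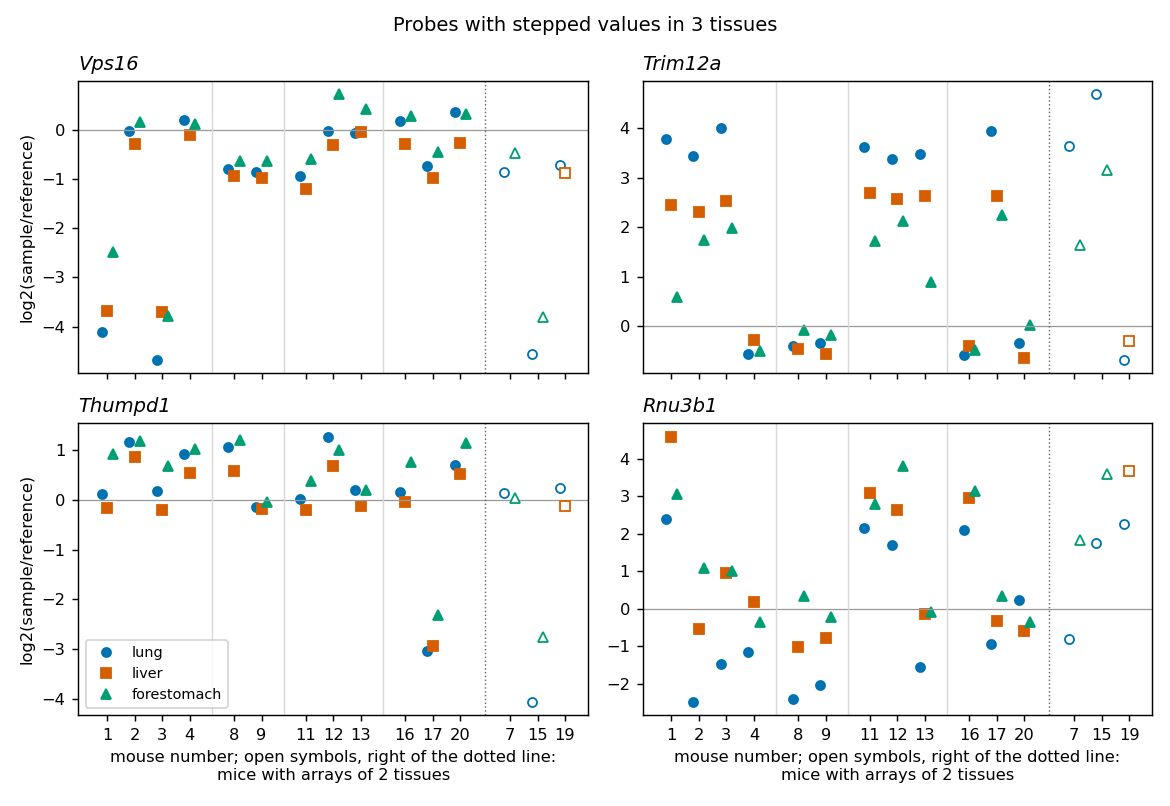
Log2 ratio of sample over reference (y axis) for Vps16, Trim12a, the second Thumpd1 probe and Rnu3b1 in 12 mice with 3 tissues (x axis, filled symbols, dose groups divided by grey lines) and in mice 7, 15 and 19 with 2 (open symbols), with lung as circles, liver as squares and forestomach as triangles. The low mice are the same in every tissue of a probe, 1 and 3 for Vps16 and 17 for Thumpd1, and mouse 15 is low for both.

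The 3 mice that took no part in the calls are described apart. Mouse 15 read -4.55 in lung and -3.80 in forestomach for Vps16, and -4.06 and -2.76 for the second probe of Thumpd1, the level of the low mice. Mouse 19 read -0.68 in lung and -0.29 in liver for Trim12a. Taken over the 175 called probes, with the deviation from the mean of the dose group's other mice, mouse 7 deviated the same way in its 2 tissues in 64.0% of them against 54.6% of all probes, mouse 15 in 72.6% against 61.6% and mouse 19 in 64.0% against 47.3%. The tissues of mice 7 and 15 were on the same slide and those of mouse 19 were not. Mouse 19 differed from the mean by -1.54 in lung and -1.21 in liver for Hsph1, and by -0.59 and -2.33 for Dbp. The dose group means come from mice used in the calls and carry their mouse effects in both tissues. A share above that of all probes can thus arise without covariation in mice 7, 15 or 19. These are single mice, and no test was made.

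Hddc3, a phosphohydrolase, moved together in the tissues of nearly every mouse. It lay above the group mean in all 3 tissues of mice 1, 4, 8, 13, 17 and 20 and below it in mice 2, 3, 9, 12 and 16, with an adjusted p of 5.62e-06 and r of 0.91, 0.96 and 0.94 for lung and liver, lung and forestomach, and liver and forestomach. Its rho was 0.90, 0.96 and 0.92, the exact permutation p 0.0156, 0.00752 and 0.00868 for r (adjusted 0.668, 0.261 and 0.661) and 0.0139, 0.00984 and 0.0110 for rho, and r without the 2 farthest mice 0.89, 0.91 and 0.94. With arrays only centred on their median the calls of Hddc3 (0.0842), Zfp637, Itpa and 2810004N23Rik (each 0.0948) were lost, and that of Tomm22 was lost without mouse 12 (0.0656). Zfp637, a zinc finger protein, was highest in mouse 16, at 1.05 in lung, 1.45 in liver and 1.40 in forestomach, and its 2 other probes were called as well. Clic4, an intracellular chloride channel protein, was 2.02 to 2.37 in the lungs of mice 2, 3, 8, 11 and 17 and -0.41 to 0.81 in the others, and deviated the same way in all 3 tissues of 12 of 12 mice, but its second probe was not called (mean r 0.25). The called genes included neighbours in the genome. Of 126 genes with a called probe that had a place in the order of protein-coding genes, 16 pairs lay at most 10 genes apart, among them Vps16 and Itpa, Trim34a and Trim12a, and Mt2 and Mt1, whose profiles over the mice had r = 0.98, 0.88 and 0.96. Over the 16 pairs r ran from -0.12 to 0.98, and the number of such pairs among genes that were not called was not counted.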

How the data were processed

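Total RNA of lung, liver and forestomach was hybridised to Agilent SurePrint G3 mouse arrays, the sample in Cy5 and a common mouse reference RNA in Cy3, with no dye swap. The deposited scanner files hold, per spot, median intensity values of both channels without background subtraction and flags, and the deposited log10 ratio that the scanner software made after background subtraction and dye normalisation. The authors also deposited a table of log2 ratios after LOWESS of the medians. Its lung and forestomach columns correlated with the same arrays at 0.995 to 0.999, but its 13 liver columns at -0.00301 to 0.000337, so the row order of the liver columns did not match the probe names, and the table was used as an alternative for lung and forestomach only.

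Median intensities were normalised here by loess within each array (limma 3.58.1, R 4.3.3), without background correction as the study's methods state, leaving out control spots and outlier flags, and 59305 spots were averaged to 55681 probes. RefSeq accessions named 26413 probes (47.4%), and gene coordinates are not given because the array's build differs from that of the table. A probe needed a sample signal well above background on at least 3 of 12 arrays in every tissue (21353), and values on all arrays (21238). The titles of the samples gave the groups and the number of the mouse, and the pairing of tissues is that of the same animal. The mouse effect was tested by a moderated F on 8 and 16 degrees of freedom plus 4.11 prior ones, with Benjamini-Hochberg adjustment, on deviations from the mean of each tissue and dose group. Pair correlations used 7 degrees of freedom. P-values are 2-sided for correlations. The steps were tested on simulated data with known mouse effects. With each tissue's own SD, 11 of 100 probes simulated at a correlation of 0.7 were called, and 34 of 100 at 0.9. With the same SD in the 3 tissues these were 40 and 76. A probe that was not called may therefore still covary.

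Genes named were the 12 called ones with the highest mean correlation, the called and leading 4 members of the clock and glucocorticoid lists, the leading member of every other list, the 3 highest and up to 3 lowest of each tissue pair, and 11 genes always given. The brightest probe stood for a gene. Other genes were chosen after their values were seen. The members and lists were chosen with earlier results of these data known. Alternatives were the scanner's ratios, normexp with an offset of 50, median centring, the deposited table, filters, a slide block, marker scores as covariates, Spearman, array weights, equal tissue SD, an ordinary F and leaving out each mouse. With 12 mice, the number of arrays limits the precision. The values of 1 member of the core clock list are not reported here.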

Additional observations from a re-analysis of the deposited data

Results flagged for a closer look

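In each tissue the 4 vehicle mice were looked over for 1 mouse far from the others, and the gap to its nearest neighbour, as a share of the range of the 4, set 15 of 282 groups apart (5.32%), where chance gives about 1 in 20. Mouse 2 stood high in liver for Hspb1, at a log2 ratio of 1.89 against -0.10 for the next mouse (share 0.982), for Tsc22d3 (0.901, 2.39 against 1.49) and for Tmed8 (0.929, -0.64 against -1.15), a gene whose profile followed Hsph1. Mouse 2 stood low for Apol10b in lung (0.862, -0.68 against -0.32) and for Rtp4 in forestomach (0.863, -3.03 against -2.31).

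Mouse 4 stood low for Trim12a in liver (0.919, -0.27 against 2.31) and in lung (0.875, -0.56 against 3.44), for 2810004N23Rik in forestomach (0.922, -0.93 against 0.04) and in liver (0.861, -0.69 against -0.03), for Apob in lung (0.853, 0.22 against 0.57) and for Cidec in lung (0.832, 2.74 against 3.60). Mouse 1 stood low for Tomm22 in liver (0.925, -0.81 against 1.55) and for Nr3c1 in lung (0.830, 0.51 against 0.85), and high for a probe of Eif2s1 that is not the gene's brightest in liver (0.913, -1.35 against -2.10). The brightest probe of Eif2s1 was not called. Mouse 3 stood high for Mt1 in forestomach (0.865, 0.45 against -0.28).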

How the results depend on the processing

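The 175 probes with a mouse effect became 49 with median centring, 75 with slide as a block, 534 with array weights and 0 with tissues scaled to equal SD, and, by settings chosen after seeing the data, 134 by an ordinary F and 381 by an ordinary F on scaled tissues, with 117 to 212 when a mouse was left out. The 24 probes called between lung and liver became 47 by the scanner's ratios, 7 where all 12 arrays had to be above background, 10 with no filter, 12 by Spearman and 0 with median centring, with slide as a block or with the muscle score as covariate (7 to 16 without 1 mouse). The 0 between lung and forestomach became 8 by the scanner's ratios, 5 with normexp, 9739 with median centring, 4 by the authors' table, 1 under the filter on all 12 arrays and 11 by Spearman (0 to 4 without 1 mouse). The 2 between liver and forestomach became 0 with median centring, no filter, slide as a block or either marker score as covariate (0 to 1 without 1 mouse). Of 58 named probes with a called mouse effect, 21 remained called with median centring and 33 with slide as a block. With the muscle score as covariate 42 remained, and 35 to 56 without 1 mouse. With tissues scaled to equal SD 0 remained, and by an ordinary F on scaled tissues 56 did. Causes were not tested.

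The median r of 0.58 in forestomach for the 100 leading probes was 0.46 under the filter on all 12 arrays (0.51 to 0.64 without 1 mouse). The median mean r of the core clock list was 0.35 with median centring, against 0.58, and that of the histocompatibility list 0.014, against 0.50. That of the interferon list was 0.18 with median centring and 0.23 with slide as a block, against 0.44, and that of the histocompatibility list 0.23 with the muscle score. That of the clock output list was 0.28 with median centring, 0.62 with slide as a block and 0.58 with the muscle score, against 0.43. Without 1 mouse the medians ran from 0.44 to 0.66 (core clock), 0.35 to 0.53 (clock output), 0.25 to 0.54 (glucocorticoid targets), 0.40 to 0.69 (heat shock), 0.26 to 0.60 (interferon) and 0.12 to 0.58 (histocompatibility), the lowest of the glucocorticoid, interferon and histocompatibility lists being those without mouse 12 and that of heat shock without mouse 2. The median intraclass correlation ran from 0.063 to 0.088. With the mouse as a random replicate block the consensus correlation was 0.0817, against a median of 0.0788, and the median residual SD of 0.223 was 0.236 with no replicate block. The alternative of the authors' table was not run for results that need liver. Medians near 0 changed sign: that of liver and forestomach over all probes (-0.008) ran from -0.030 to 0.023 without 1 mouse and was 0.06 with slide as a block, that of lung and liver (0.04) was -0.06 with median centring, and those of the immediate early (0.04, -0.03 to 0.19), lipogenesis (-0.01, -0.11 to 0.01) and proliferation lists (0.09, -0.03 to 0.14) crossed 0 without 1 mouse. With slide as a block proliferation was at -0.20 and the AhR list at -0.01, and the acute phase list (-0.05) was at 0.24 with median centring. The medians of the 6 lists with ranges given above stayed above 0 in every setting run.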

Other observations

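In the authors' table, correlations between pairs of liver columns equalled those between the arrays within 0.0031, although no liver column correlated with its own array by probe name (-0.00301 to 0.000337).

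Further pairs of neighbouring called genes, seen after their values were known, were Rnf215 and Sf3a1 (profiles over 12 mice with r = 0.96), Rsrp1 and Clic4 (0.97) and Scyl3 and Mettl18 (0.95). Other neighbours did not follow each other, such as Ssbp3 and Tceanc2 (-0.12) and Atp6v0e2 and Repin1 (-0.04).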
